A study of Mus musculus with 6 samples.

Results

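The mitosis and G2/M genes are 39 genes, chosen by name, whose products drive a cell through late interphase and division. All 39 were among the 33924 gene symbols of the table of RPE/choroid total RNA, each on 1 line. RPE/choroid is the pigmented epithelium behind the retina with the vascular layer beneath it, scraped as 1 tissue from the eyecup. The mice were male C57BL/6J by their labels, with no transgene or treatment in either group, and the methods give 2 eyes per sample. There were 3 young mice, labelled 1 to 2 months old, and 3 aged mice, labelled 20 to 24 months old in the titles and 22 to 24 months old in the time label. The methods differ from the labels in naming both sexes and young mice of 2 to 3 months.

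The value used for a gene is the authors' mean of normalized counts over all 6 libraries, the pooled mean. It has no error, because no value per library was analysed here, and it does not separate young from aged mice. The levels below therefore describe the tissue over both ages, and no age group is compared. The depth of each library is not given in the sources used here, and small differences in level between genes cannot be told from the spread between mice.

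A cell enters mitosis when cyclin-dependent kinase 1, joined to A-type and B-type cyclins, becomes active. Condensin and topoisomerase then compact the chromosomes, kinesins and their partners build the spindle, and the checkpoint holds the anaphase-promoting complex back until each kinetochore is attached. The RNAs of these proteins rise in G2 and mitosis and are low in resting cells, which is why several of them serve as markers of proliferation. RPE cells of an adult mouse are known as resting cells that divide rarely, while the choroid also holds endothelium, fibroblasts, pigment cells and immune cells.

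Many G2/M genes are known for short elements in their promoters. The cell cycle genes homology region, or CHR, is a short element of G2/M promoters through which the DREAM complex holds them off in resting cells and through which B-Myb and FoxM1 act in dividing cells. CCAAT boxes, bound by NF-Y, often lie upstream of it, whereas E2F sites are best known from genes of DNA replication. The letters searched were TTTGAA and TTCGAA for the CHR, CCAAT for the CCAAT box, and TTTCCCGC, TTTCGCGC, TTTGCCGC and TTTGGCGC for E2F, on both strands. None of these words lies inside another. The windows were the RefSeq promoters of GRCm38.p6, from 250 bases before a start to 50 after it, and 33 of the 39 genes had 1 or more windows there, 35 in all. Ccna2, Aurkb, Kif20a, Tpx2, Smc4 and Foxm1 were not matched.

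The sites below show the CHR match nearest to the start in Cdk1, cyclin and kinesin genes, with 10 bases on either side. Capitals mark the match. These roles were picked after the matches had been seen, to show where the matches lie and the bases beside them. The capitals are alike because the search fixed them.
Cdk1: ccgcggcgagTTTGAAactgctggca
Ccnb2: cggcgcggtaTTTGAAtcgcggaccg
Kif4: ctgggatcaaTTTGAAacttggcggt
Kif23: gattggcctgTTTGAAatgcgccggg
Kif11: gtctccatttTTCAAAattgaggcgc
Kif15: gggcgccaaaTTCAAAtctgcggcca
Kif2c: aggctgctctTTCAAAcctgagtaat

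Read along the gene, the first 4 sites carry TTTGAA and the last 3 its reverse complement. Cdk1, the mitotic kinase, had its match 15 bases before the start, at chr10:69352912-69352937 on the minus strand. The match of Ccnb2, a B-type cyclin, began at base 5 of the transcript (chr9:70421535-70421560, minus strand). Among the kinesins, that of Kif11 lay 19 bases before the start (chr19:37376353-37376378, plus strand), as did that of Kif15 (chr9:122951052-122951077, plus strand). Kif23 had its match at base 3 (chr9:61946782-61946807, minus strand) and Kif4 at base 20 (chrX:100626074-100626099, plus strand). The match of Kif2c stood apart from the others, 103 bases before the start (chr4:117178860-117178885, minus strand). In GENCODE that gene reaches further upstream, to 117182639, so the distance holds for the RefSeq start used here.

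A CHR match was found in 26 of the 33 genes with a window, which is 78.8%. Among the 14162 coding genes of the table that had a pooled mean above 0 and a window, 17.7% held 1, and of the 27025 genes with any such window it was 21.7%. Within 50 bases of the start the gap was wider, with 23 of 33 genes (69.7%) against 4.58% of coding genes. The limit of 50 bases was set after the positions had been seen. The genes without a match were Birc5, Ccnb1, Cenpe, Mad2l1, Melk, Nuf2 and Nusap1. With the bases before the start alone, 15 genes (45.5%) held a CHR match, because many matches lie just after it. Of all genes with a window, 19.6% held 1 there, so the gap was narrower.

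CCAAT boxes were found in 24 of the 33 genes (72.7%), against 42.1% of coding genes, and 15 genes held 2 or more, 45.5% against 15.1%. Both elements together were found in 22 genes (66.7%), against 7.34% of coding genes. An E2F word was found in 4 genes, Cdk1, Kif15, Ncapg and Ncapd2, which is 12.1% against 3.88%. None of the 3 elements was found in 5 genes, Birc5, Mad2l1, Melk, Nuf2 and Nusap1, which is 15.2% against 47.0% of coding genes. A match is a row of letters, and binding was not measured here.

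For 50 further mitosis genes, 43 had a window and 67.4% of these held a CHR match, 51.2% within 50 bases of the start, 62.8% CCAAT and 11.6% an E2F word, shares in the same order as those of the 39 genes. For 31 replication genes, 25 had a window, and the CHR was found in 20.0% and within 50 bases in 1 gene, close to the shares of coding genes. CCAAT was found in 60% of the replication genes and the E2F words in 44%. No difference between these lists was tested. Of the 14 DREAM and Rb genes, the regulators that act on these promoters, 10 had a window, and 5 of these held the E2F words and 5 a CHR match.

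**Figure D1:**
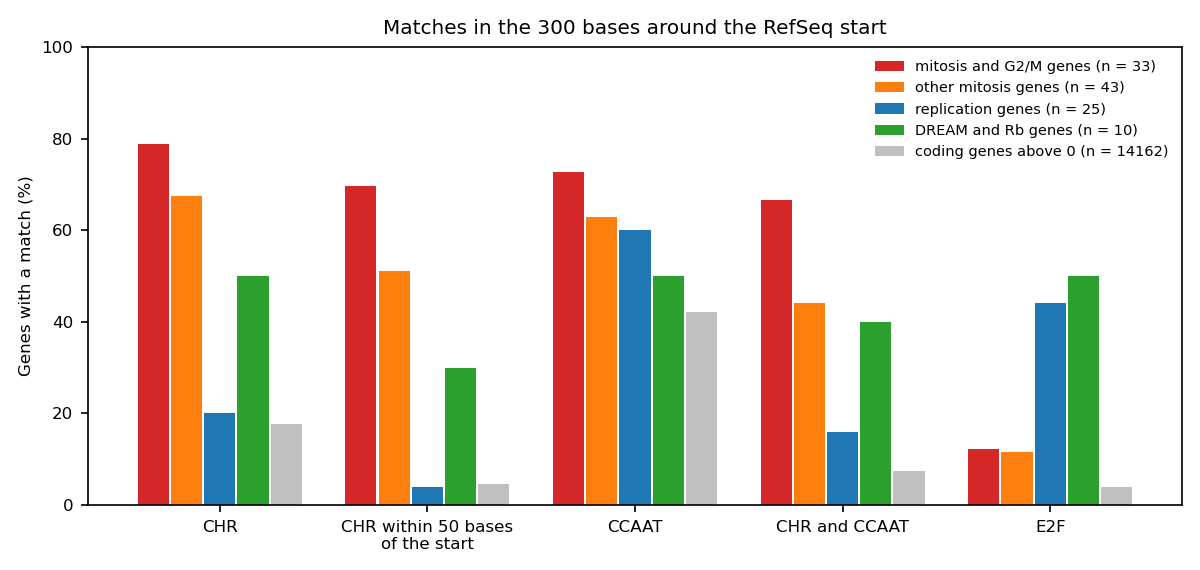
Share of genes (%) with a match in the window around the RefSeq start, for the mitosis and G2/M genes, 3 other lists and coding genes with a pooled mean above 0; n is the number of genes with a window. The CHR bars of the mitosis and G2/M genes reach 78.8% and, within 50 bases of the start, 69.7%, while the E2F bar is highest in the DREAM and Rb genes and in the replication genes.

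Over the 35 windows there were 40 CHR matches, of which 26 began within 50 bases of the start, and 57 CCAAT matches, of which 38 began in the last 100 bases before it. The windows of Ect2, a factor of cytokinesis, and of Prc1, a microtubule bundler, overlap with a second window of the same gene, so their matches count for each. In Hmmr, a spindle protein gene, 5 CCAAT boxes stood upstream of a CHR match at base 9.

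**Figure D2:**
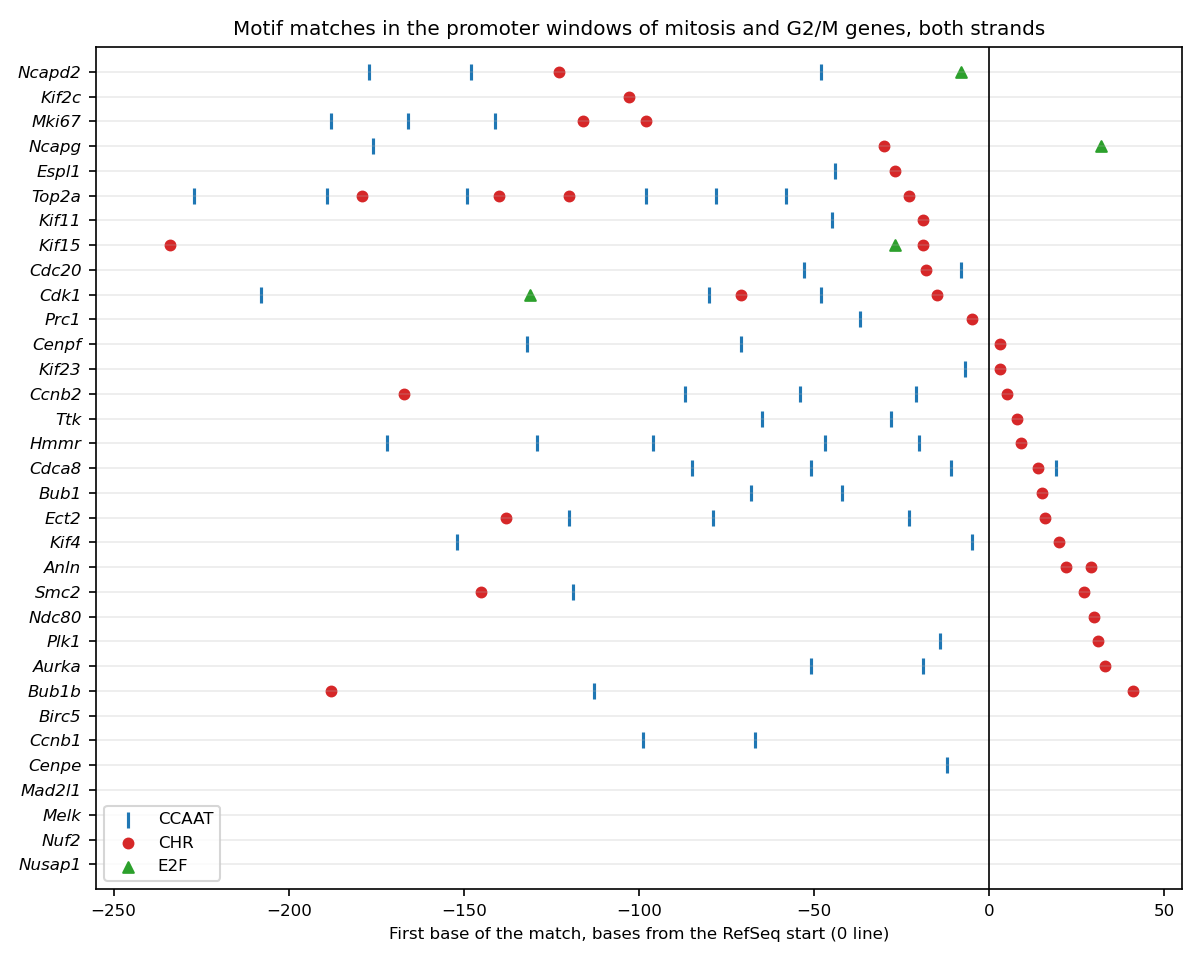
Position of each match, in bases from the RefSeq start, in the windows of 33 genes, with 1 row per gene and the first window where a gene has 2. Circles mark the CHR, bars CCAAT and triangles E2F. Most circles lie within 50 bases of the start, with CCAAT bars to their left, and the 7 lowest rows hold no circle.

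Longer stretches show both elements in the bases before the start, near it in Kif11 and far from it in Smc2 and Bub1b. Those of Bub1b, Kif11 and Smc2 are of the gene with the highest pooled mean, among the cyclins and kinases, the kinesins and condensin, that had both elements before the start, and no passenger complex gene met that rule. That of Top2a was added because it held the most matches. Capitals mark CHR and CCAAT matches on either strand, and each stretch ends at the base before the start.
Kif11: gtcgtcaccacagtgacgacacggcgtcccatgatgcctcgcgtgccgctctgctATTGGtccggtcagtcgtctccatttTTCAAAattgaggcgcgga
Top2a: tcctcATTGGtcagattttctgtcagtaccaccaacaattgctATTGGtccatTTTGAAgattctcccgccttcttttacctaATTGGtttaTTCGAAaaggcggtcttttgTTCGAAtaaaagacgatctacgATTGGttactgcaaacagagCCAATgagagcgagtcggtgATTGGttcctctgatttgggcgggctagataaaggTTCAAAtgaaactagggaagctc
Smc2: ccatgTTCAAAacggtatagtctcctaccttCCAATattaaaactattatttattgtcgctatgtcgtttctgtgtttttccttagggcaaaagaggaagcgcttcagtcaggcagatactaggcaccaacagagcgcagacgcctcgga
Bub1b: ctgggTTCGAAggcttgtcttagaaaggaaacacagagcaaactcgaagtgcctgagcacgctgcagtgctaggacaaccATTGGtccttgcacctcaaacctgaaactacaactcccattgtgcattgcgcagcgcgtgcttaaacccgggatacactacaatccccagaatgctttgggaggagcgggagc

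The stretch of Kif11 (chr19:37376282-37376381, plus strand) has a CCAAT box at -45 and a CHR match at -19, counted in bases before the start. The stretch of Top2a (chr11:99024190-99024421, minus strand) holds 6 CCAAT boxes and 4 CHR matches, the nearest at -23. In the stretch of Smc2 (chr4:52439071-52439220, plus strand) both matches lie far upstream, at -145 and -119, and a further CHR match begins at base 27 of the transcript. In that of Bub1b (chr2:118598018-118598210, plus strand) the CHR word is at -188 and the CCAAT box at -113, with a further CHR match at base 41.

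Every gene of the list was measured above 0, and the range was wide. The pooled means ran from 13.8 normalized counts for Plk1 to 958 for Smc4, a 69.4-fold range, with a median of 73.5. All 39 were at 10 normalized counts or more, as were 53.0% of all genes of the table and 83.8% of its 18061 coding genes with a pooled mean above 0. Together they summed to 4779 normalized counts, 0.0249% of the table. Rpe65, the retinoid isomerase of the RPE, alone had 9.15 times that sum. Where a bulk tissue gives a low level, few cells with the RNA and little RNA in each cell cannot be told apart.

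Levels of different genes are compared per kilobase of coding sequence, since a long RNA gives more reads. The methods say that TPM values, a unit already scaled by length, were turned into normalized counts, and not whether the lengths were put back. If they were not, the pooled mean is itself the value per length and the value per coding kilobase corrects for length again. Each of the 39 genes is therefore given on both scales, and a fold between genes per coding kilobase is followed by the fold of the pooled means where they differ by more than 1.5 times. Per coding kilobase the 39 genes ran from 5.80 normalized counts per kilobase for Ttk to 248 for Smc4, with a median of 25.5. The median coding gene had 223 and the lower quartile was 31.8. Smc4 was the 1 gene above the median coding gene on this scale, and 24 of the 39 were below the lower quartile. By pooled mean the median coding gene had 322 normalized counts and the lower quartile was 42.3. On that scale 3 genes, Smc4, Bub1b and Smc2, were above the median, and 15 of the 39 were below the lower quartile. Against the median of all genes above 0 by pooled mean, which was 82.1 and includes genes without a coding transcript, 18 were higher. The standing of the list thus moved with both the scale and the genes it was set beside.

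**Figure D3:**
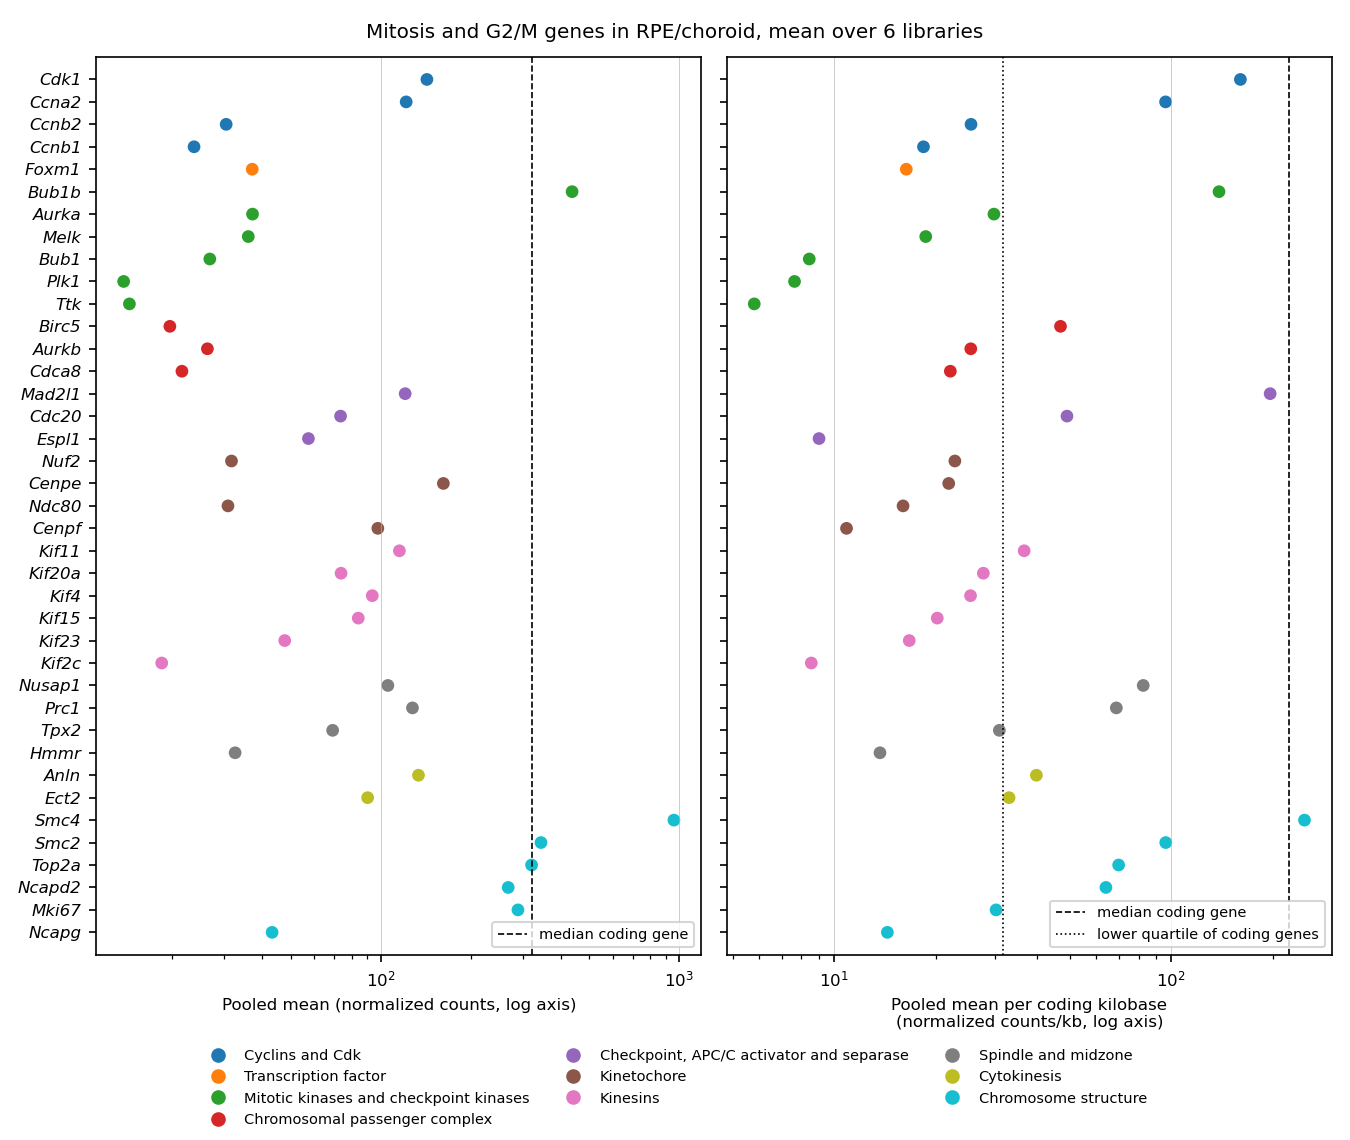
Level of each of the 39 genes, coloured by role, as the pooled mean in normalized counts (left) and per coding kilobase (right), both on log axes. Dashed lines mark the median coding gene and the dotted line the lower quartile. On the right, Smc4 at 248 is the only point beyond the median coding gene at 223, and no error bars can be drawn.

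Among the cyclins and their kinase, Cdk1 and Ccna2 were well above the B-type cyclins. Cdk1, which drives entry into mitosis, had a pooled mean of 143 and a level of 160 per coding kilobase. Ccna2, the A-type cyclin of S phase and G2, had 122 and 96.2 per coding kilobase. The mitotic cyclins Ccnb2 and Ccnb1 had pooled means of 30.4 and 23.8, which are 25.5 and 18.4 per coding kilobase. Cdk1 was thus 8.71-fold, and Ccna2 5.22-fold, above Ccnb1 per coding kilobase. The order was the same by pooled mean. Coding length leaves out the untranslated ends, and Cdk1 has 891 coding bases in a transcript of 4375. Per transcript kilobase Ccna2 had 41.1, above Cdk1 with 32.7, and Ccnb1 had 9.54. Only a share of 0.723 of the 31-base words of Ccnb1 occurs in no other gene, the lowest of the list, with most of the rest in the pseudogene Ccnb1-ps, so its own reads are uncertain. Ccna2 shares 510 exon bases with Exosc9 on the opposite strand.

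Foxm1, the transcription factor that raises many of these RNAs in G2, had a pooled mean of 37.2 and 16.4 per coding kilobase. It shares 144 exon bases with Tex52 on the same strand.

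The kinases of mitosis held both the lowest genes and 1 of the highest. Ttk, the checkpoint kinase that loads the others on kinetochores, had a pooled mean of 14.4 and the lowest level, 5.80 per coding kilobase. Plk1, which acts at centrosomes, kinetochores and the midzone, had 13.8 and 7.63. Bub1, a kinetochore kinase, had 26.8 and 8.44. These 3 were among the 5 lowest genes per coding kilobase, together with Kif2c and Espl1. Melk, a kinase of dividing cells, had 36.1 and 18.7, and Aurka, the kinase of spindle poles, had 37.3 and 29.8.

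Bub1b stood apart from them, with a pooled mean of 437 and 139 per coding kilobase. It encodes BubR1, the checkpoint protein that inhibits the anaphase-promoting complex, and was 16.4-fold above its paralogue Bub1 per coding kilobase. All of its 31-base words were its own, and it shares no exon base with another gene. In Plk1, a share of 0.852 of the words was its own, and the rest lie in the pseudogene Plk-ps1.

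The chromosomal passenger complex corrects faulty attachments and prepares the cleavage furrow. Its members were low and close to each other, with pooled means of 26.3 for Aurkb, its kinase, 21.6 for Cdca8 (borealin) and 19.7 for Birc5 (survivin). Per coding kilobase, Aurkb had 25.4, Cdca8 22.1 and Birc5, a short gene, 46.9. Cdca8 shares 232 exon bases with 9930104L06Rik, a gene of 322 normalized counts on the opposite strand. Incenp, the scaffold of the complex from the list of further mitosis genes, had 71.5 per coding kilobase, 2.81-fold above Aurkb, and a pooled mean of 189, 7.17-fold above it.

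Genes of the checkpoint and of the release into anaphase differed more. Mad2l1, the checkpoint protein that binds Cdc20, had a pooled mean of 121 and, with a short coding sequence of 615 bases, the second highest level per coding kilobase, 197. That was 33.9-fold above Ttk, and by pooled mean 8.37-fold. Cdc20, which activates the anaphase-promoting complex in mitosis, had 73.5 and 49.1 per coding kilobase. A share of only 0.745 of its words is its own, with the pseudogene Gm7856 as the main partner. Cdc20 also shares 53 exon bases with Elovl1, a gene of 1161 normalized counts on the opposite strand. Espl1, the separase that cuts cohesin, had 57.3 and 9.02 per coding kilobase.

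Partners outside the list were higher than these genes, except Mad1l1 per coding kilobase. Bub3, the partner of Bub1 and Bub1b, had a pooled mean of 1060 and 1084 per coding kilobase. Mad1l1, which recruits Mad2l1, had a pooled mean of 410, above that of Mad2l1, but 191 per coding kilobase, below its 197. Fzr1, the activator of the same complex in G1 and in resting cells, had a pooled mean of 382 and 258 per coding kilobase, 5.26-fold above Cdc20. Pttg1, the securin that keeps Espl1 inactive, had 1487 per coding kilobase and a pooled mean of 888, the highest level per coding kilobase of the further mitosis genes. By pooled mean alone Ncaph2 and Bub3 were higher.

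At the kinetochore, the 4 genes lay in a narrow band per coding kilobase. Nuf2 and Ndc80, which form the outer part of the microtubule-binding Ndc80 complex, had pooled means of 31.7 and 30.9, or 22.8 and 16 per coding kilobase. Cenpe, a kinetochore kinesin, and Cenpf, a large matrix protein of the kinetochore, had 162 and 97.9 as pooled means but 21.9 and 10.9 per coding kilobase. Of the other subunits of the Ndc80 complex, Spc24 had a pooled mean of 20.9 and 34.7 per coding kilobase, so it was below Ndc80 on the first scale and above it on the second. Spc25 had 286 and 422, which is 9.27-fold above Ndc80 by pooled mean and 26.3-fold per coding kilobase.

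The 6 kinesins ran from 8.56 to 36.6 per coding kilobase. Kif11 (Eg5), which pushes spindle poles apart, had the highest level of these, with a pooled mean of 116 and 36.6 per coding kilobase. Kif20a and Kif23, which act in the midzone and in cytokinesis, had pooled means of 73.7 and 47.8, and 27.7 and 16.7 per coding kilobase. Kif4, a kinesin of chromosome arms and the midzone, had 93.8 and 25.4. Kif15, which backs up Kif11, had 84.2 and 20.2. Kif2c, the kinesin that takes microtubules apart, was lowest with 18.5 and 8.56, so that Kif11 was 4.28-fold above it per coding kilobase. Kif20a shares 1271 exon bases with Cdc23, and Kif4 shares 832 with Pdzd11, in both cases on the opposite strand and at a partner level of 1213 and 562 normalized counts. How far reads were divided by strand was not tested.

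Most spindle and cytokinesis genes lay above the median of the list per coding kilobase, and Hmmr lay below it. Nusap1, which bundles microtubules at chromosomes, had a pooled mean of 106 and 82.6 per coding kilobase. Prc1, which bundles them in the midzone, had 128 and 68.7. Tpx2, the activator of Aurka, had 69.1 and 30.9, and Hmmr had 32.6 and 13.7, so Nusap1 was 6.03-fold above Hmmr per coding kilobase and 3.25-fold by pooled mean. For cytokinesis, Anln (anillin), the scaffold of the contractile ring, had 134 and 39.8, and Ect2, which activates RhoA at the furrow, had 90.5 and 33. Nusap1 shares 172 exon bases with Oip5, and Prc1 shares 911 with Rccd1, on the opposite strand.

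Genes of chromosome structure held 46.5% of the summed pooled means of the list with 6 of its 39 genes, and 27.9% of the sum per coding kilobase. Smc4, the condensin ATPase on chromosome 3 at 69004738 to 69034623 (GRCm38), alone held 20.1% of the summed pooled means and had 248 per coding kilobase. Its partner Smc2 had a pooled mean of 344 and 96.3 per coding kilobase. Top2a, the topoisomerase of dividing cells, had 320 and 69.8, and shares 122 exon bases with the small RNA gene Gm23451 on the same strand. Mki67, whose protein Ki-67 coats mitotic chromosomes, had 288, but it is a long gene, with 9531 coding bases, and had 30.2 per coding kilobase, under the lower quartile of coding genes on that scale but not by pooled mean. The 5 highest genes by pooled mean, Smc4, Bub1b, Smc2, Top2a and Mki67, held 49.1% of the sum, and 31.1% of the sum per coding kilobase.

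Condensin I and condensin II share Smc2 and Smc4 and differ in 3 other subunits. Condensin I acts after the nuclear envelope has broken down, while condensin II is nuclear throughout the cycle. Of the subunits of condensin I, Ncapd2 had a pooled mean of 267 and 64.0 per coding kilobase, Ncapg 43.3 and 14.4, and Ncaph 46.3 and 21.1. Each counterpart in condensin II was higher on both scales. Ncapd3 had a pooled mean of 658 and 146 per coding kilobase, 2.27-fold above Ncapd2 on the latter scale. Ncapg2 had 412 and 121, which is 8.38-fold above Ncapg per coding kilobase. For Ncaph2 the levels were 1570 and 861, which is 40.8-fold above Ncaph per coding kilobase. Ncapd2 shares 237 exon bases with Scarna10, a small RNA of 5925 normalized counts on the same strand, and the reads of the 2 were not told apart here. Ncapg shares 944 with Lcorl on the opposite strand.

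Beside the 39 genes, the 50 further mitosis genes had a median of 33.8 per coding kilobase, 1.33 times that of the list. By pooled mean the direction turned, with a median of 49.1 against 73.5, or 0.668 times that of the list. Per coding kilobase they were led by Pttg1, Bub3 and Ncaph2, and Troap was lowest with 2.08. Replication genes had a median of 97.3, 3.82 times that of the list per coding kilobase and 1.99 times by pooled mean, and 4 of 31 were above the median coding gene. Pcna, the sliding clamp of DNA synthesis and repair, led them with 1327 per coding kilobase, followed by Mcm6 with 402 and Rrm1 with 382, and Cdc6 was lowest with 15.8. DREAM and Rb genes had a median of 216, 8.49 times that of the list per coding kilobase and 3.90 times by pooled mean. Lin52 was highest per coding kilobase with 1225, then Rbl2 with 553 and Tfdp1 with 443. By pooled mean the order turned, with Rbl2 at 1882, Rb1 at 1119, Lin54 at 551, Tfdp1 at 545 and Lin52 at 426. Mybl2, the B-Myb that replaces the repressors in dividing cells, was lowest on both scales, with 5.76 per coding kilobase. These multiples have no error and were not tested.

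**Figure D4:**
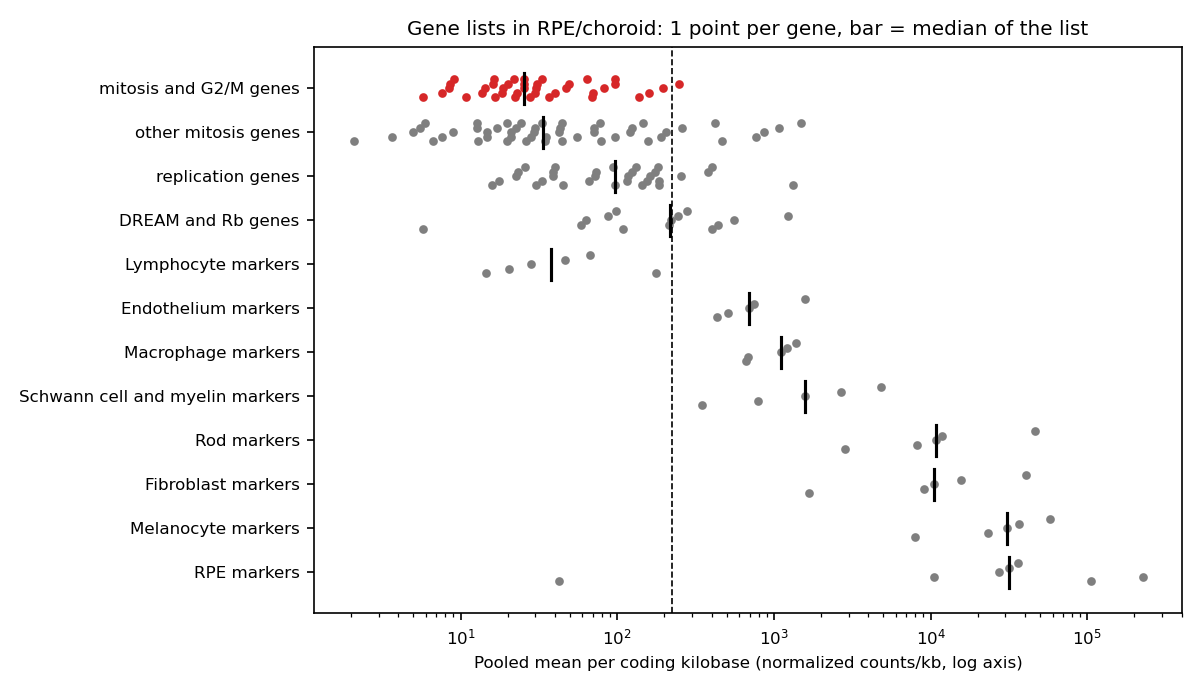
Pooled mean per coding kilobase (log axis) of each gene in the mitosis and G2/M list (red), 3 other cell cycle lists and 8 cell type marker lists, with a bar at the median of each list and a dashed line at the median coding gene, 223. The medians rise from 25.5 in the red list to 97.3 in replication genes and 216 in DREAM and Rb genes, and 6 of the 7 RPE markers lie far to the right, while Best1 lies at 42.2.

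The label was checked against markers of cell types. RPE markers had a median of 31611 per coding kilobase, although Best1, an RPE channel gene, had 42.2. Melanocyte markers, pigment genes that RPE also expresses, had 30705, rod markers 10889, fibroblast markers 10518, Schwann cell and myelin markers 1569, macrophage markers 1117 and endothelium markers 690. By pooled mean the order turned, and melanocyte markers at 57664 and fibroblast markers at 43430 had higher medians than RPE markers at 30062. Rod markers had 12334 on that scale, macrophage markers 2905, endothelium markers 2323 and Schwann cell and myelin markers 1177. Lymphocyte markers had 37.6, which is 1.47 times the median of the mitotic genes, but by pooled mean 29.3, which is 0.399 times it. The 39 genes cannot be assigned to any of these cells, and the part of each cell type in their levels was not tested.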

How the data were processed

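RPE/choroid of 6 mice was profiled as rRNA-depleted total RNA with a stranded kit. Whether counting used strand is not stated. Per the study's methods and the labels, the authors trimmed reads with BBDuk, mapped them with STAR to Ensembl transcripts of GRCm38, estimated TPM with Sailfish, turned these into normalized counts by total count and ran DESeq2. The deposited table gives for each gene 1 signal value, the authors' mean of normalized counts over all libraries. Its other columns hold the authors' own comparison of the ages (log2 fold change, its standard error, Wald score, p and adjusted p) and were not used here. It held 0 columns for a single sample, so no test was run and no group was compared.

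Coding lengths are of the longest coding sequence in GENCODE M21 (GRCm38), with 1768 symbols matched by an older name through RefSeq. TPM is scaled by length, and the methods do not say whether this was undone in the deposited values, so values per coding kilobase may be corrected for length again. With coding genes in 5 equal bins by length, the median pooled mean was 162 in the shortest bin and 695 in the longest, and per kilobase 336 and 195. Shared words are 31-base words of all GENCODE transcripts. Promoter sequences are from RefSeq (GRCm38.p6), and 1 site is not reported here. The planned protein sequences were not used. The self-test on simulated sequences was passed. Python 3.11.15, pandas 2.3.3, numpy 2.4.6 and matplotlib 3.10.9 were used.

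The 39 genes and the lists were chosen with earlier results of these data known. Every one of the 39 is named with its pooled mean. Of each other cell cycle list the 3 highest genes and the lowest are named, besides partners of the 39 in a complex, which were chosen after their values were seen.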

Additional observations from a re-analysis of the deposited data

How the results depend on the processing

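No paired analysis was possible because only 1 pooled mean per gene was used. Leaving out a library, the replicate block, other normalizations and a pseudocount were therefore not run. The depth of each library, which limits low genes most, is not given in the sources used here.

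All 39 genes passed a limit of 10 normalized counts, as under a limit of 5, while 31 passed 30 and 14 passed 100. At 10 it was 53.0% of all genes and 83.8% of coding genes above 0. The shares at the other limits are not given here, and the median coding gene had 322 normalized counts. Of 39, 18 were above the median gene. Set beside all gene lines of the table, those at 0 included, the number was 37. Beside coding genes it was 3, beside genes at 10 or more 2, per coding kilobase 1 and, in an alternative added after the data had been seen, per transcript kilobase 2. The medians compared differ by construction. The 5 highest genes held 49.1% of the sum by pooled mean, and the 5 highest per coding kilobase, of which 3 are the same genes, held 44.8%. Chromosome structure genes held 46.5% by pooled mean and, in an alternative added after the data had been seen, 27.9% per coding kilobase. In others added then, the median over that of the list went from 1.33 per coding kilobase to 0.668 by pooled mean for the further mitosis genes, which turns the direction, from 3.82 to 1.99 for replication genes and from 8.49 to 3.90 for DREAM and Rb genes.

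A CHR match was found in 26 genes, 78.8% against 21.7% of all genes with a window, the background of each share below. It was found in 25 with TTTGAA alone (75.8% against 20.2%) and in 21 on the strand of the gene (63.6% against 13.2%). Within 50 bases of the start, added after the data had been seen, it was found in 23 (69.7% against 6.12%). Before the start it was found in 15 (45.5% against 19.6%). CCAAT was found in 24 genes (72.7% against 41.1%), also before the start alone (72.7% against 37.5%), and in 15 on the strand of the gene (45.5% against 23.7%). For E2F the numbers were 4 (12.1% against 2.60%), then 3 before the start (9.09% against 2.16%) and 2 on the strand of the gene (6.06% against 1.38%). Each of these alternatives searches fewer words or fewer bases.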
